A study of Gallus gallus with 9 samples.

Results

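A group of 111 mRNAs had a lower level at the ZT12 stage than at both the ZT0 and the ZT20 stage in granulosa cells of the largest preovulatory follicle (F1) of laying hens. They were chosen from 12479 mRNAs (0.889%) by their stage means on the log2(TPM + 1) scale, where TPM is a transcript abundance normalized for gene length and library size. The mean at ZT12 had to lie at least 1 below the means at ZT0 and at ZT20, and the means at ZT20 and ZT0 had to differ by less than 1. A difference of 1 on this scale is close to a doubling of TPM for well expressed genes and understates the change of genes near or below 1 TPM. All 3 pairs of stages entered this choice, so the stage levels of these genes are described here and are not tested.

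The study followed the ovulatory cycle by total RNA sequencing of granulosa cells from F1 follicles. Rohman layers, a commercial egg-laying strain, were killed at 210 days of age, with 3 hens at ZT0 (9:00), 3 at ZT12 (21:00) and 3 at ZT20 (5:00), which makes 9 libraries in all. No allele or treatment is named for any stage, and ZT20 was the stage at which the study sampled the surge of luteinizing hormone (LH). Every hen of a stage was sampled at the same clock time, so the stage of the ovulatory cycle and the time of day cannot be told apart.

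Granulosa cells line the inside of the follicle, surround the yolk-filled oocyte and make most of its progesterone. In the hen, progesterone from the F1 follicle and LH from the pituitary raise each other before ovulation, and the granulosa cells answer LH through cAMP and protein kinase A. A gene with its lowest level at ZT12 was lower on average in the ZT12 hens than in those of ZT0 and ZT20. Each stage had its own hens, and none was sampled between these times.

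Of the 111 genes, 25 had a gene symbol in the annotation used here, 2 were annotated without a symbol, and 84 carried only an Ensembl identifier. No sequence is shown, because none was used here. Among the markers of granulosa cells, 2 of 14 could be matched by symbol. STAR, which moves cholesterol into the mitochondrion for steroid synthesis, had 2133, 2071 and 1011 TPM at ZT0. It had 1453, 1736 and 1403 TPM at ZT12, and 16462, 13747 and 10507 TPM at ZT20. NR5A1, a nuclear receptor of steroidogenic cells, had 261, 316 and 350 TPM at ZT0. It had 158, 161 and 216 TPM at ZT12, and 52.5, 31.6 and 43.1 TPM at ZT20. CLDN5, a tight junction protein of endothelium and the single matched gene of 10 endothelial markers, had 42.3, 24.5 and 74.5 TPM at ZT0, 14.2, 14.6 and 19.3 TPM at ZT12, and 4.16, 5.02 and 5.15 TPM at ZT20. It was lower at ZT12 than at ZT0, as the 111 genes were, but not higher at ZT20 than at ZT12. The leukocyte genes PTPRC and CD74 were 2 of 13 listed. PTPRC had 0.274, 0.509 and 0.639 TPM at ZT0, 0.281, 0.431 and 0.184 TPM at ZT12, and 0.612, 0.662 and 0.753 TPM at ZT20. CD74 had 55.1, 32.6 and 53.7 TPM at ZT0, 136, 51.2 and 34.3 TPM at ZT12, and 31.2, 30.6 and 17.9 TPM at ZT20. No gene of the theca and stroma, red cell, thrombocyte or germ cell lists was matched. The part of other cell types in the dip was not tested, and in bulk samples fewer cells of a type and less RNA per cell cannot be told apart.

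The 9 libraries differed in how their TPM was spread over genes. The 10 highest mRNAs were taken for each library on its own, so they need not be the same genes throughout. They took 24.0%, 24.3% and 23.4% of all mRNA TPM in the ZT0 libraries, 30.2%, 30.3% and 36.5% in the ZT12 libraries, and 25.1%, 24.3% and 23.4% in the ZT20 libraries. ZT12 replicate 3 stood apart with the largest share. A difference of stage means (log2) was taken for each mRNA. Over all mRNAs its median was -0.28 for ZT12 minus ZT0, 0.08 for ZT20 minus ZT12 and -0.19 for ZT20 minus ZT0. The study lists the reads of each library, and both its most and its least deeply sequenced library were from ZT12. It also lists a higher GC content in every ZT12 library than in any ZT0 library. That content was highest in ZT12 replicate 3 and also high in ZT20 replicate 3, and its part in the dip was not tested. TPM does not give the reads behind the value of a gene, so no counting interval can be given.

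The median level of the 111 genes, on the log2(TPM + 1) scale, was 3.59, 3.75 and 4.30 in the ZT0 libraries, 2.54, 2.49 and 2.26 in the ZT12 libraries, and 4.22, 4.43 and 4.14 in the ZT20 libraries. Each ZT12 library lay below the other 6, and ZT0 replicate 3 lay above the other ZT0 libraries, at the height of ZT20. Over all mRNAs the same medians were 3.87, 3.92 and 4.02 at ZT0, 3.63, 3.59 and 3.43 at ZT12, and 3.59, 3.69 and 3.53 at ZT20. A deeper dip than that of the whole table was fixed by the choice of genes, and the median gene-wise difference over all mRNAs was 0.08 for ZT20 minus ZT12. Together the 111 genes held 0.369%, 0.455% and 0.594% of mRNA TPM at ZT0, 0.224%, 0.203% and 0.1504% at ZT12, and 0.567%, 0.605% and 0.681% at ZT20.

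**Figure D1:**
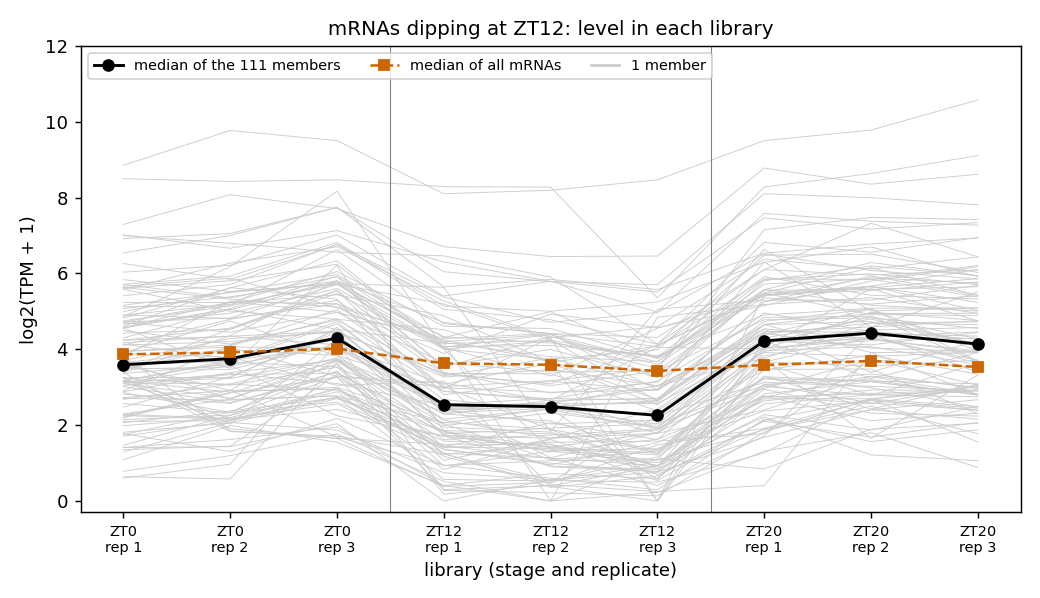
Level of each of the 111 genes (grey lines) on the log2(TPM + 1) scale in the 9 libraries, in stage order, with the median of the 111 (black circles) and the median of all mRNAs (orange squares). The black line lies at 2.54, 2.49 and 2.26 in the ZT12 libraries, below its value in each of the other 6. The orange line runs between 3.43 in ZT12 replicate 3 and 4.02 in ZT0 replicate 3.

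The stage mean of the 111 genes ran between 1.47 and 686 TPM at ZT0 with a median of 13.5, between 0.157 and 306 TPM at ZT12 with a median of 4.86, and between 1.61 and 1042 TPM at ZT20 with a median of 18.2. At ZT12 a mean under 1 TPM was found for 12 of the genes, and at the other stages for none of the 111. The ZT12 minus ZT0 difference had a median of -1.26 on the log2 scale and reached -3.08, and the ZT20 minus ZT12 difference had a median of 1.58 and reached 3.45. The depth of the dip, taken as the smaller of both differences, was above 2 for 6 genes, between 1.5 and 2 for 15, between 1.2 and 1.5 for 32, and under 1.2 for 58. Most of the chosen genes were therefore close to the limit of 1. For 82 genes the mean at ZT20 was above that at ZT0, and for 29 it was below, against 97 above and 14 below under median ratio scaling.

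All 3 ZT12 libraries lay below all 6 others for 92 of the 111 genes, against 18.1% of all mRNAs in the table. After median ratio scaling this held for 78 of the 111, against 7.72% of all mRNAs. Among the other 19, a ZT0 library reached down into the ZT12 range for 11 and a ZT20 library for 11, with 3 genes counted in both. Within ZT12 the lowest library was replicate 1 for 25 genes, replicate 2 for 31 and replicate 3 for 55 (49.5%, against 57.5% of all mRNAs). At ZT0 the highest library was replicate 3 for 79 of the 111 genes. That library also had the highest median over all mRNAs at ZT0 (4.02, against 3.87 and 3.92). The same share over all mRNAs was not taken, so the 79 are not read as particular to these genes. The spread between hens, as the median SD on the log2 scale, came to 0.458 for ZT0, 0.327 for ZT12 and 0.314 for ZT20, against 0.172, 0.188 and 0.208 over all mRNAs. The chosen genes thus varied more between hens of a stage than most mRNAs, above all at ZT0. The choice used these same values, and how far it favoured genes with outlying hens was not tested.

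In a limma fit over 12472 mRNAs with 3 stage means, a gene was called at an absolute log2 difference above 1 and a Benjamini-Hochberg adjusted p under 0.05. The fit called 87 of the 111 genes lower at ZT12 than at ZT0, beside 3.32% of all mRNAs tested, and 101 higher at ZT20 than at ZT12, beside 16.0%. Both steps were called for 85 of them, beside 1.36% (169 mRNAs). These counts repeat the contrasts that chose the genes, and nothing is read from the gap to the percentages. For all mRNAs the step between ZT12 and ZT0 gave 481 calls (3.86%), of which 67 (0.537%) were higher at ZT12 and 414 lower. When libraries were set to one scale by the median of their gene-wise ratios, which removes the shift of the whole table, 203 were called, 101 higher and 102 lower. Under that scaling 17 of the 111 genes were called lower at ZT12, and 96 were called higher at ZT20 than at ZT12. Without ZT0 replicate 2 the 87 became 44, without ZT0 replicate 3 or ZT12 replicate 2 they became 29, and without ZT12 replicate 3 they became 36. The step down to ZT12 was thus more sensitive to the scale and to single hens than the step up to ZT20, where leaving out 1 library gave 83 to 104 calls. The split between ZT20 and ZT12 was 2001 higher and 1464 lower, and 1886 higher and 1643 lower by median ratio scaling.

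**Figure D2:**
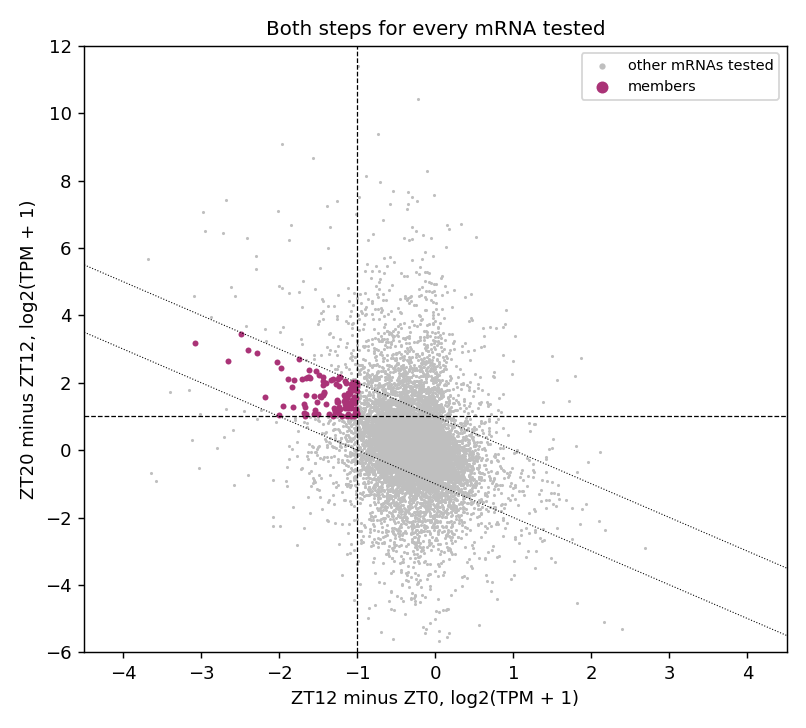
ZT12 minus ZT0 difference (horizontal axis) against ZT20 minus ZT12 difference (vertical axis) of stage means, both on the log2(TPM + 1) scale, for the mRNAs tested (grey) and the 111 chosen genes (purple). Dashed lines mark the limits of 1 on each step and dotted lines a ZT20 minus ZT0 difference of 1 in either direction, so the purple points fill the area the choice allows and crowd near its corner.

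Of the 25 genes with a symbol, 24 are given by what their products do, with replicates 1, 2 and 3 of each stage in that order and positions on the Gallus_gallus 6.0 genome build that the study's methods name. Of these 24 genes, 4 act in the nucleus. CITED4 (ENSGALG00000000678, chr23:1422978-1425194), a transcriptional co-activator that binds CBP and p300, had 28.01, 71.5 and 287 TPM at ZT0, 15.2, 17.5 and 10.3 TPM at ZT12, and 141, 177 and 171 TPM at ZT20. Its dip was the deepest among the 25, with a ZT12 minus ZT0 difference of -2.50 and a ZT20 minus ZT12 difference of 3.45, and the ZT12 libraries lay below all others. The ZT0 hens were spread over a wide range, and without ZT0 replicate 3 or without ZT20 replicate 1 the gene no longer met the limits. KDM2B (ENSGALG00000004225, chr15:5516643-5532669), a histone demethylase that binds unmethylated CpG DNA, had 64.6, 73.3 and 129 TPM at ZT0, 41.4, 54.4 and 30.6 TPM at ZT12, and 191, 165 and 154 TPM at ZT20. It was separated at every stage, with ZT20 above all ZT0 libraries and a ZT20 minus ZT0 difference of 0.99, just inside the limit. DOT1L (ENSGALG00000000843, chr28:2044891-2095545), a methyltransferase of histone cores in transcribed genes, had 8.002, 12.1 and 15.5 TPM at ZT0, 4.25, 4.603 and 5.14 TPM at ZT12, and 24.1, 25.6 and 16.6 TPM at ZT20. Again the stages did not overlap, and the ZT12 hens lay close together.

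SUGP2 (ENSGALG00000003047, chr28:3676512-3687043), a protein with the domains of splicing factors, had 41.6, 51.3 and 108 TPM at ZT0, 32.2, 26.5 and 16.6 TPM at ZT12, and 112, 93.3 and 122 TPM at ZT20. Its ZT0 replicate 3 was far above the other ZT0 hens and lay within the ZT20 range, and its ZT12 libraries lay below all others. It did not meet the limits without ZT0 replicate 3, which also held for KDM2B and DOT1L. Those 2 genes also failed without ZT20 replicate 3, and KDM2B without ZT12 replicate 3 or ZT20 replicate 2 as well.

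Transporters and a channel made up a further 4. SLC16A9 (ENSGALG00000003172, chr6:9165000-9184327), a monocarboxylate transporter family member that exports carnitine in humans, had 156, 269 and 208 TPM at ZT0, 103, 86.2 and 87.0 TPM at ZT12, and 439, 326 and 391 TPM at ZT20. It had the highest mean level of the 25, its stages did not overlap, and its difference of 2.05 between ZT20 and ZT12 was larger than the -1.15 between ZT12 and ZT0. SLC16A9 did not meet the limits under median ratio scaling, nor without ZT0 replicate 2 or ZT20 replicate 2. SLC7A4 (ENSGALG00000002204, chr15:10123467-10126290), placed by sequence in the cationic amino acid transporter family, had 1.45, 3.20 and 2.64 TPM at ZT0, 0.675, 0.473 and 0.691 TPM at ZT12, and 4.91, 5.96 and 5.72 TPM at ZT20. It had the same order of stages at a far lower level, with all ZT12 hens under 1 TPM. SLC2A1 (ENSGALG00000004889, chr21:6473984-6482977), the glucose transporter GLUT1, had 6.50, 16.1 and 27.1 TPM at ZT0, 6.43, 5.47 and 7.94 TPM at ZT12, and 27.6, 28.3 and 11.7 TPM at ZT20. Here the stages overlapped, since ZT0 replicate 1 lay within the ZT12 range, and ZT20 replicate 3 was well below the other ZT20 hens.

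TRPM1 (ENSGALG00000003849, chr10:5624899-5632166), a cation channel needed by retinal bipolar cells in mammals, had 0.519, 0.958 and 17.0 TPM at ZT0, 0.213, 0.160 and 0.0971 TPM at ZT12, and 2.52, 5.43 and 4.62 TPM at ZT20. Its low level at ZT12 was shared by all 3 hens, but its ZT0 mean rested on replicate 3, and without that library the gene no longer met the limits. The other ZT0 hens were both under 1 TPM, so for them the level differed from ZT12 by less than 1 TPM while the ZT20 hens had at least 2.52 TPM.

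Enzymes and a secreted lipase inhibitor gave 3 of the deeper dips. ADA (ENSGALG00000004170, chr20:5505993-5512210), adenosine deaminase, which turns adenosine into inosine, had 25.9, 34.3 and 54.2 TPM at ZT0, 10.8, 14.97 and 8.55 TPM at ZT12, and 55.1, 72.3 and 60.5 TPM at ZT20. The ZT12 hens lay clear of all others, with differences of -1.62 (ZT12 minus ZT0) and 2.38 (ZT20 minus ZT12). MOGAT1 (ENSGALG00000005217, chr9:8038070-8049501), an acyltransferase that makes diacylglycerol, had 7.64, 10.9 and 3.75 TPM at ZT0, 2.27, 1.66 and 1.403 TPM at ZT12, and 12.2, 2.15 and 8.99 TPM at ZT20. A single ZT20 hen, replicate 2, lay within the ZT12 range, yet the gene met the limits whichever library was left out. ANGPTL4 (ENSGALG00000000619, chr28:838935-846067), a secreted inhibitor of lipoprotein lipase, had 22.8, 37.1 and 30.5 TPM at ZT0, 18.0, 11.8 and 5.39 TPM at ZT12, and 37.0, 60.2 and 42.0 TPM at ZT20. ZT12 lay below both other stages, but the ZT12 hens spread widely, and without ZT12 replicate 3 the gene did not meet the limits.

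Signalling and membrane trafficking proteins were the largest set, with 7 genes. AGAP1 (ENSGALG00000004045, chr7:5204645-5492354), which switches off Arf GTPases of endosomes, had 28.9, 35.4 and 51.6 TPM at ZT0, 19.1, 17.0 and 12.9 TPM at ZT12, and 59.4, 41.9 and 39.2 TPM at ZT20. RAB11FIP3 (ENSGALG00000002666, chr14:13067178-13107546), a Rab11 partner in recycling endosomes, had 51.4, 60.0 and 112 TPM at ZT0, 34.3, 31.1 and 37.0 TPM at ZT12, and 77.3, 103 and 59.3 TPM at ZT20. For both genes ZT0 and ZT20 overlapped each other and ZT12 lay below both. RAPGEF1 (ENSGALG00000003712, chr17:6717452-6765406), an activator of the GTPase Rap1, had 3.77, 6.25 and 8.57 TPM at ZT0, 2.08, 2.33 and 2.74 TPM at ZT12, and 10.004, 13.3 and 9.18 TPM at ZT20. MYLK3 (ENSGALG00000004334, chr11:7921125-7941408), in mammals the myosin light chain kinase of the heart, had 3.19, 4.18 and 5.59 TPM at ZT0, 1.99, 1.81 and 0.919 TPM at ZT12, and 5.68, 6.15 and 6.60 TPM at ZT20. These genes were separated at every stage, with ZT20 highest.

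CARD9 (ENSGALG00000001889, chr17:8395197-8401638), an adaptor of innate immune receptors in mammals, had 7.95, 6.31 and 6.99 TPM at ZT0, 3.21, 2.71 and 1.54 TPM at ZT12, and 5.23, 6.61 and 6.57 TPM at ZT20. Its ZT20 mean lay slightly below its ZT0 mean, by 0.18 on the log2 scale, as in 4 of the 25 genes (MOGAT1, ADAMTSL2, CARD9 and ARRDC2). Under median ratio scaling CARD9 and MOGAT1 turned to ZT20 above ZT0, which left 2 of the 25 below. NECAB3 (ENSGALG00000003065, chr20:2258878-2283007), an EF-hand calcium-binding protein, had 6.26, 4.03 and 5.10 TPM at ZT0, 1.67, 1.92 and 1.99 TPM at ZT12, and 2.42, 12.3 and 7.30 TPM at ZT20. ARRDC2 (ENSGALG00000003527, chr28:4063103-4065550), an alpha-arrestin, had 7.93, 3.07 and 18.4 TPM at ZT0, 2.37, 1.51 and 1.601 TPM at ZT12, and 4.18, 5.24 and 4.46 TPM at ZT20. Both kept ZT12 lowest in all hens, while the stage with the widest spread was ZT20 for NECAB3 and ZT0 for ARRDC2.

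The remaining 6 act at the cell surface, in the matrix or outside these classes. TSPAN2 (ENSGALG00000002554, chr26:3987671-4005550), a tetraspanin of the plasma membrane, had 8.42, 3.44 and 5.65 TPM at ZT0, 1.56, 0.941 and 1.90 TPM at ZT12, and 5.68, 8.82 and 6.97 TPM at ZT20. TMEM132B (ENSGALG00000002742, chr15:4295448-4471780), a single-pass membrane protein, had 5.40, 7.46 and 6.62 TPM at ZT0, 2.62, 2.42 and 1.48 TPM at ZT12, and 8.38, 7.89 and 6.003 TPM at ZT20. Both met the limits whichever library was left out, with overlapping ZT0 and ZT20 values and all ZT12 hens below them. TJP3 (ENSGALG00000000748, chr28:980790-991145), a scaffold of tight junctions, had 6.05, 4.94 and 9.57 TPM at ZT0, 2.41, 2.79 and 3.10 TPM at ZT12, and 7.28, 9.24 and 6.79 TPM at ZT20. ADAMTSL2 (ENSGALG00000002955, chr17:7447781-7466142), a secreted glycoprotein that binds fibrillin in mammals, had 4.55, 8.71 and 20.9 TPM at ZT0, 2.29, 2.15 and 2.44 TPM at ZT12, and 4.29, 8.70 and 6.05 TPM at ZT20. Its ZT12 hens were nearly equal and its ZT0 hens were not.

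SHISA5 (ENSGALG00000004661, chr12:3245016-3246910), a membrane protein of the endoplasmic reticulum, had 18.7, 32.3 and 22.0 TPM at ZT0, 16.9, 0 and 27.8 TPM at ZT12, and 35.2, 40.1 and 29.9 TPM at ZT20. It was listed at 0 in ZT12 replicate 2, and without that library it did not meet the limits, so its place among the 111 rests on 1 hen. SS2 (ENSGALG00000003034, chr21:4096146-4099871) had 8.48, 7.30 and 10.5 TPM at ZT0, 4.05, 4.42 and 3.09 TPM at ZT12, and 17.6, 16.4 and 20.8 TPM at ZT20, and its stages did not overlap. Over the 25 genes, all ZT12 libraries lay below the 6 others for 22, beside 18.1% of all mRNAs. The exceptions were SHISA5, MOGAT1 and SLC2A1. Both steps were called by limma for 19, beside 1.36% of all mRNAs tested. Those not called in both were TRPM1, SHISA5, MOGAT1, NECAB3, SLC2A1 and ARRDC2. The choice of genes used both steps, so nothing is read from the gap to these shares. In 16 of the 25, ZT0 replicate 3 was the highest ZT0 library, and it also had the highest ZT0 median over all mRNAs.

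**Figure D3:**
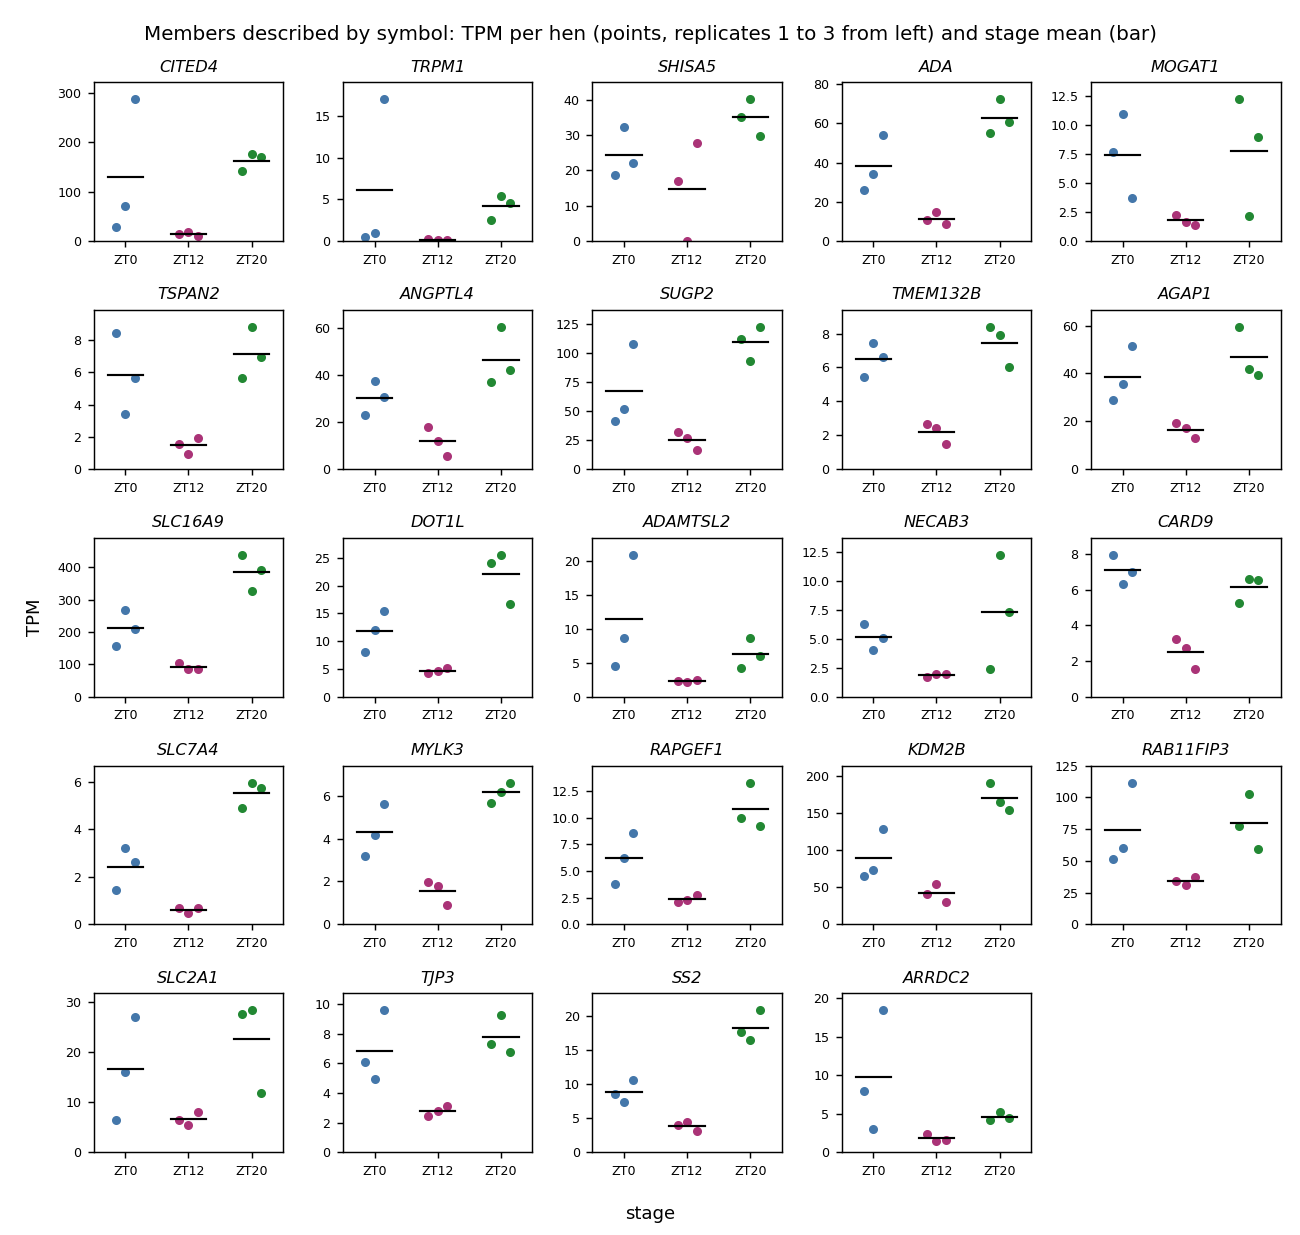
TPM of 24 genes with a symbol, 1 panel each, with a point for each hen (replicates 1 to 3 from left to right) and a bar at the stage mean, at ZT0 (blue), ZT12 (purple) and ZT20 (green). The vertical axes start at 0 and differ between panels. The points at ZT12 lie below all others in 21 panels, which the choice of genes favoured (18.1% of all mRNAs). In the panels of CITED4 and TRPM1 the third ZT0 point stands far above the other 2.

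The 86 genes without a symbol spanned a wider range of levels and of dips. Their mean ran between 1.47 and 686 TPM at ZT0, between 0.201 and 306 TPM at ZT12, and between 1.61 and 1042 TPM at ZT20. The ZT12 libraries lay below all 6 others for 70 of them, beside 18.1% of all mRNAs, and ZT20 exceeded ZT0 for 61. Limma called both steps for 66, beside 1.36% of all mRNAs tested. Both steps had entered the choice of these genes, so the counts are a description only. The following were picked after their values were seen, for the deepest dips and the highest levels.

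ENSGALG00000029435 had the deepest dip of all 111 genes, with 22.6, 10.3 and 73.7 TPM at ZT0, 2.57, 1.67 and 2.47 TPM at ZT12, and 24.3, 29.8 and 29.9 TPM at ZT20. Its ZT12 hens lay close together and far below the rest. ENSGALG00000051635, with the next deepest, had 20.5, 22.0 and 43.3 TPM at ZT0, 15.1, 1.57 and 1.11 TPM at ZT12, and 15.7, 47.5 and 25.9 TPM at ZT20. Its ZT12 replicate 1 almost reached the lowest ZT20 hen, so its dip was carried by replicates 2 and 3. ENSGALG00000010902 had 3.42, 3.80 and 8.68 TPM at ZT0, 0.232, 0.320 and 0.880 TPM at ZT12, and 7.12, 5.88 and 11.3 TPM at ZT20. All its ZT12 hens were under 1 TPM.

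The highest level belonged to ENSGALG00000032142, with 461, 872 and 725 TPM at ZT0, 274, 292 and 353 TPM at ZT12, and 724, 879 and 1524 TPM at ZT20. Its stages at ZT0 and ZT20 overlapped and ZT12 lay below both, but it did not meet the limits under median ratio scaling or without ZT0 replicate 2. ENSGALG00000047993, the next highest, had 361, 343 and 353 TPM at ZT0, 312, 309 and 39.9 TPM at ZT12, and 310.1, 397 and 551 TPM at ZT20. Here a single library, ZT12 replicate 3, made the dip, and without it the gene did not meet the limits. ENSGALG00000050413 had 25.3, 36.5 and 42.4 TPM at ZT0, 28.5, 11.7 and 0 TPM at ZT12, and 41.8, 49.8 and 67.8 TPM at ZT20. It was 1 of 7 genes listed at 0 in some ZT12 library, and it too depended on ZT12 replicate 3. The range of the ZT12 hens exceeded 2 on the log2 scale in 10 of the 111 genes and stayed under 1 in 81.

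The limits cut through a continuous range of values. Of the genes with a symbol, SS2 and TJP3 stood just inside the limit on the step between ZT0 and ZT12, with ZT0 minus ZT12 differences of 1.01 and 1.02, and ANK3 and MAPKAPK2 just outside, with 0.98 and 0.97. On the step between ZT12 and ZT20, ARRDC2 and CARD9 stood inside with ZT20 minus ZT12 differences of 1.002 and 1.06, and DYRK3 and AFMID outside with 0.91 and 0.77. For the difference between ZT20 and ZT0, KDM2B and SS2 stood inside with 0.99 and 0.98, and CYP3A4 and HLF outside with 1.09 and 1.18. HLF, a transcription factor of the circadian output, had 11.4, 17.1 and 31.0 TPM at ZT0, 7.53, 6.25 and 6.14 TPM at ZT12, and 46.0, 45.4 and 37.0 TPM at ZT20. Its ZT12 hens also lay below all others, and it stayed out only because ZT20 exceeded ZT0 by more than the limit. DYRK3, a protein kinase, had 18.6, 20.1 and 30.0 TPM at ZT0, 7.61, 6.22 and 7.98 TPM at ZT12, and 14.3, 16.1 and 13.1 TPM at ZT20, and it stayed out because ZT20 remained lower. The margin by which these genes stood inside or outside was smaller than the median SD between hens of the 111 genes.

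How many mRNAs met the limits depended on the scale and on single hens. With median ratio scaling 47 mRNAs met them, 46 of which were among the 111, and with quantile normalization 42, of which 41 were. The median ZT12 minus ZT0 difference of the 111 was -0.97 under median ratio scaling, and that over all mRNAs was -0.02. Only 36 of the 111 met the limits under both scalings. With a pseudocount of 0.1 in place of 1, 324 mRNAs met them, 104 of which were among the 111. Without ZT0 replicate 3 there were 65, with 59 of the 111, while without ZT0 replicate 1 there were 174 and without ZT12 replicate 1 there were 172. Leaving out ZT12 replicate 3 removed 38 of the 111, and leaving out ZT0 replicate 3 removed 52.

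Among the 111, 27 genes met the limits whichever of the 9 libraries was left out, and 23 of these also did so under both scalings. The same values chose the genes, so this describes them and is no separate support for a dip. MOGAT1 and TSPAN2 were the genes with a symbol among the 23, although limma did not call MOGAT1 between ZT12 and ZT0. Of the 25 genes with a symbol, only these and TMEM132B met the limits whichever library was left out. Leaving out any of 4 libraries ended this for KDM2B, SLC7A4, SS2 and ARRDC2, and any of 3 for RAB11FIP3 and SLC2A1. The 23 also held ENSGALG00000029435, ENSGALG00000051635 and ENSGALG00000010902. Another 5 genes with a symbol, TRPM1, SHISA5, ADA, ANGPTL4 and ADAMTSL2, met the limits under median ratio scaling but not without a certain library. The reverse choice, a mean at ZT12 at least 1 above both other stages that differed by less than 1, was met by 37 mRNAs, and by 63 under median ratio scaling. The excess of dips over peaks was therefore found on the deposited scale and turned round under median ratio scaling, where 47 mRNAs dipped.

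**Figure D4:**
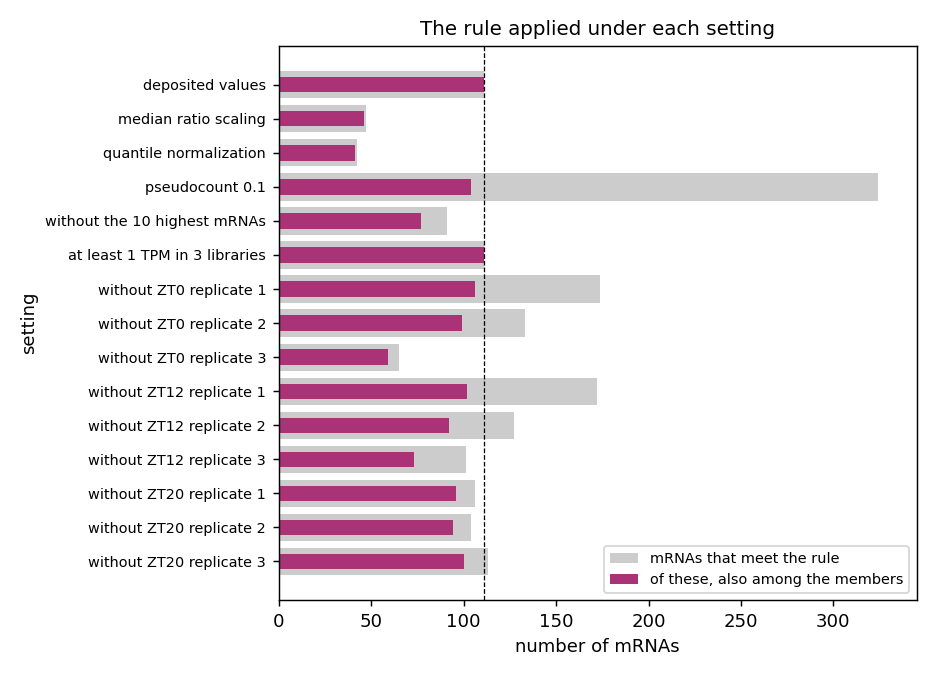
Number of mRNAs that meet the limits (horizontal axis) under each setting (rows), as all such mRNAs (grey bars) and those also among the 111 (purple bars), with a dashed line at 111. The bars shrink to 47 and 42 under the median ratio and quantile scalings and to 65 without ZT0 replicate 3, and the grey bar reaches 324 with a pseudocount of 0.1.

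Of the 27 genes with a position, 23 (85.2%) lay on chromosomes 11 to 33, which include the small microchromosomes of birds, against 72.1% of the 1998 mRNAs positioned here. Chromosomes 6 to 10 held 4, and neither chromosomes 1 to 5 nor Z held one. The annotation used here covered only part of the mRNAs and few of the large chromosomes, so these shares describe that part. Chromosome 28 held 5, ANGPTL4, TJP3, DOT1L, SUGP2 and ARRDC2, of 93 positioned mRNAs, chromosome 15 held 4 of 101 and chromosome 17 held 4 of 104. The span of the gene on the genome had a median of 11432 bases among the 27 and 11437.5 bases among all positioned mRNAs.

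Among the lncRNAs, 133 of 7528 (1.77%) met the same limits on their own deposited scale, where 2 in place of 1 appeared to have been added before the logarithm. Within 10 kb of the 27 genes with a position lay 3 lncRNAs, and the other 84 genes could not be searched. G5636, at chr17:8399742-8404234, is listed as antisense inside an intron and overlaps the gene span of CARD9 by 1897 bases. It had 0.821, 0.933 and 1.23 TPM at ZT0, 0.769, 0.766 and 0.6002 TPM at ZT12, and 0.152, 0.240 and 0.193 TPM at ZT20. It was lowest at ZT20, when CARD9 was back near its ZT0 level. G5611, at chr17:7450353-7453360 within the span of ADAMTSL2, had 0.648, 1.004 and 1.53 TPM at ZT0, 0.706, 0.985 and 0.884 TPM at ZT12, and 0.364, 0.471 and 0.275 TPM at ZT20. It was also lowest at ZT20. G9919, at chr26:3976794-3981679 and 5992 bases from TSPAN2, had 0.535, 0 and 0.261 TPM at ZT0, 0, 0 and 0.145 TPM at ZT12, and 1.19, 1.10 and 0.608 TPM at ZT20. It was highest at ZT20, where the lowest hen lay just above the highest ZT0 hen. Whether G5636 shares exon sequence with CARD9 was not examined. Whether reads were counted by strand is not given in the sources used here. Without strand, reads from any shared sequence could not be assigned to one of the 2.

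Few genes of known pathways could be set beside the group, because most listed symbols were absent from the annotation used here. The solute carriers were the fullest list, with 39 genes matched and SLC7A4, SLC16A9 and SLC2A1 in the group. Between ZT12 and ZT0, 3 of the 39 were called, all lower at ZT12 (SLC7A4, SLC16A9 and SLC6A4), beside 3.32% of all mRNAs tested. SLC7A4 and SLC16A9 are of the group, so their direction was fixed by the choice. The list median was -0.33 on the log2 scale beside -0.28 over all mRNAs. Between ZT20 and ZT12, 12 were called higher at ZT20 and 2 lower (SLC26A2 and SLC25A33), beside 16.0% and 11.7% of all mRNAs tested. The 12 hold SLC7A4, SLC16A9 and SLC2A1, whose direction was fixed by the choice. The list median was 0.38 beside 0.08. SLC6A4, the serotonin transporter, had 6.75, 12.7 and 44.2 TPM at ZT0, 0.796, 0.424 and 0.602 TPM at ZT12, and 3.22, 5.71 and 4.27 TPM at ZT20. It dipped too, with all ZT12 hens below all others, but ZT20 remained below ZT0 by more than the limit.

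Of 54 extracellular matrix genes 5 were matched, with a list median of -0.65 for ZT12 minus ZT0 and 1.11 for ZT20 minus ZT12. The same medians over all mRNAs were -0.28 and 0.08. The 1.11 is the value of ADAMTSL2 itself, a gene of the group whose direction in both steps was fixed by the choice. ADAMTSL2 and FN1 were called lower at ZT12 than at ZT0, beside 3.32% of all mRNAs tested. Both, with FBN1, were called higher at ZT20 than at ZT12, beside 16.0%. The other matched genes, LAMC1 and COL6A3, were called in neither step, and LAMC1 had a ZT20 minus ZT12 difference of -0.08. COL6A3 had 0.0252, 0.0118 and 0.00402 TPM at ZT12, and 1.09, 0.985 and 0.611 TPM at ZT20. Its ZT20 minus ZT12 difference of 0.89 had an adjusted p of 1.6e-04 in limma and missed the call only by the limit of 1. FN1, fibronectin, had 460.3, 970.3 and 896 TPM at ZT0, 97.1, 113 and 172 TPM at ZT12, and 2444, 3609 and 2947 TPM at ZT20, and so went far above its ZT0 level at the surge stage. Of 27 genes of the circadian clock 4 were matched and none was in the group. HLF was called lower at ZT12 than at ZT0 and higher at ZT20 than at ZT12, beside 3.32% and 16.0% of all mRNAs tested. RORA was called lower at ZT20 than at ZT12, beside 11.7%, and neither PER3 nor CSNK1D was called. CSNK1D, a kinase of the clock proteins, had 66.3, 64.5 and 63.0 TPM at ZT0, 41.0, 37.8 and 33.9 TPM at ZT12, and 60.5, 58.6 and 57.0 TPM at ZT20. It had the same shape with little spread between hens, at differences of -0.77 and 0.63 that did not reach the limit of 1. The medians of these 4 genes were -0.68 for ZT12 minus ZT0 and 0.24 for ZT20 minus ZT12.

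Of 27 genes of steroid synthesis and cholesterol supply 6 were matched and none was in the group. Between ZT12 and ZT0 limma called 0 of the 6, beside 3.86% of all mRNAs tested. At an unadjusted p under 0.05 there were 2, and the list median was -0.23. Between ZT20 and ZT12 STAR was called higher and NR5A1, NR5A2 and POR lower, with a list median of -1.24. Over all mRNAs tested these shares were 16.0% and 11.7%. No gene of the 6 was called lower at ZT12 and then higher at ZT20. Both were called for only 1.36% of all mRNAs tested, so nothing is read from this in 6 genes.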

How the data were processed

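Granulosa cell RNA of 9 hens was sequenced by the authors, aligned with STAR 2.6.0c and assembled with Cufflinks 2.2.1, per the submitters' processing notes, and quantified with Kallisto, per the study's methods. The authors deposited log2 values of mRNAs and lncRNAs, read here as log2(TPM + 1) for mRNAs, the scale the study names for its plots, and as log2(TPM + 2) for lncRNAs, which is inferred from the values. Titles gave stage and replicate. The count model of the study's methods was not used, since the values are not counts.

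The genes and gene lists were chosen with earlier results of these data known. Values were fitted with limma 3.58.1 (R 4.3.3) with a mean-variance trend on 12472 mRNAs above 0.1 TPM in at least 1 library, which kept all 111 genes. The design left 6 residual degrees of freedom, and p-values were adjusted by Benjamini-Hochberg over all mRNAs tested. In simulated data of 12472 genes, of which 200 dipped by 2 (log2), 194 were recovered for ZT12 against ZT0 with 4 false calls, and 189 for ZT20 against ZT12 with 1 false call. The simulated dips were set only in genes with a mean above 2 (log2), with normal noise and no shift of the whole table. Of the 111 genes 6 dipped by more than 2, so these rates do not describe the shallower dips or the genes near 0 TPM. Symbols and positions came from the study's annotation table, of which 1998 mRNAs were used here. Among genes with a symbol, those named were the 12 deepest dips, the 8 highest levels, members of the lists for solute carriers, extracellular matrix, circadian clock and steroidogenesis, the genes nearest each limit, and those with the widest gap or ZT12 spread, and the few left over were added. Alternatives were other scalings, another pseudocount, other filters, no trend, no fold change threshold, a replicate block and leaving out each library. Promoter motifs were not analysed here. A further gene with a symbol, counted in all totals, is not reported here.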

Additional observations from a re-analysis of the deposited data

How the results depend on the processing

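For the genes named by the fixed choice, both steps to and from ZT12 kept their direction in every alternative tried. These genes were chosen for large differences in both steps or for lying nearest the limits, so a kept direction was largely set by that choice. The ZT20 minus ZT0 difference, which the choice kept small, changed sign 13 times in 6 genes (MOGAT1, CARD9, AFMID, TRPM1, RAB11FIP3 and ANK3), in no case where it was called. On the step between ZT12 and ZT0 they kept their side of the threshold in 298 combinations of gene and setting, lost the call in 128 and gained it in 6. On the step between ZT20 and ZT12 the numbers were 399, 29 and 4.

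The 111 mRNAs became 47 with median ratio scaling, 42 with quantile normalization and 324 with a pseudocount of 0.1, and 65 to 174 when 1 library was left out. In place of the 481 mRNAs called between ZT12 and ZT0, 203 were called with median ratio scaling, 215 with quantile normalization (115 higher, 100 lower), 785 with a pseudocount of 0.1, 2089 with no fold change threshold, and 196 to 699 with 1 library left out (196 without ZT0 replicate 3, 222 without ZT12 replicate 2 and 282 without ZT12 replicate 3). Rescaling without the 10 highest mRNAs, chosen after seeing the data, gave 320 (86 higher, 234 lower). For this rescaling the 10 were the same in every library, those with the highest mean TPM over all libraries.

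In place of the 87 of the 111 genes called lower at ZT12, 17 were called with median ratio scaling, 17 with quantile normalization, 43 without the 10 highest mRNAs, and 29 to 83 with 1 library left out (44 without ZT0 replicate 2, 29 without ZT0 replicate 3, 29 without ZT12 replicate 2 and 36 without ZT12 replicate 3). Those called higher at ZT20 than at ZT12 numbered 83 to 104 with 1 library left out. Between ZT20 and ZT12 3465 mRNAs were called, 3427 to 3506 with 1 library left out and 6638 with no fold change threshold. Between ZT20 and ZT0 3512 were called, 3410 to 3657 with 1 library left out and 6676 with no fold change threshold. The split between ZT20 and ZT12 was 1757 higher and 1770 lower with quantile normalization, and that between ZT20 and ZT0 was 1442 higher and 2070 lower, against 1729 and 1564 with median ratio scaling and 1653 and 1656 with quantile normalization. The cause of these shifts was not tested beyond the scale itself.

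Each stage had its own hens, so the replicate numbers do not pair hens across stages. The correlations of same-numbered deviations from the stage means ran between -0.187 and 0.0783 over 9 pairs. With the replicate block 388 mRNAs were called between ZT12 and ZT0, 3466 between ZT20 and ZT12 and 3512 between ZT20 and ZT0, and 68 of the 111 genes were lower at ZT12 and 102 higher at ZT20. The promoter motif alternative was not run. The part of sequencing depth in the low values was not tested.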
